A study of Mus musculus with 12 samples.

Results

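Transcripts of 42 mouse liver genes of fatty acid oxidation and its control by the nuclear receptor PPARalpha were examined. They were chosen by name, as known PPARalpha targets and enzymes of the pathway, with earlier results of these data known. The RNA-seq data listed 49584 genes, of which 26524 had a value above 0, and all 42 were found. The groups were ENU-injected Tert-/- mice of the G1 generation (N-ethyl-N-nitrosourea, a mutagen that adds ethyl groups to DNA bases), saline-injected Tert-/- mice, ENU-injected wild-type mice and saline-injected wild-type mice, with 3 libraries each. All mice were of the strain given as C57BL/6/129/SvJ and were age-matched. ENU was given into the peritoneum at 150 µg per g body weight, and livers were taken 24 h after the injection of ENU or saline. Tert encodes the catalytic subunit of telomerase, and G1 names the generation of Tert-/- mice used; the labels do not give the part of Tert that is deleted, the age in weeks, the sex, or the feeding state and time of day at collection. Whether each library came from a separate animal is not stated either, so the p-values reflect no more than the variation among libraries.

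PPARalpha is a ligand-activated receptor that is abundant in hepatocytes and is switched on by fatty acids, as in fasting. With its partner RXR it binds a direct repeat of the short site AGGTCA and raises genes for fatty acid uptake, activation, entry into mitochondria, oxidation in mitochondria and peroxisomes, and omega hydroxylation in the endoplasmic reticulum. In rodents, strong activation also multiplies peroxisomes.

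The libraries held 30053822 to 43680374 reads in genes. Tert-/- saline replicate 2 stood apart, with 17486 genes that had reads against 19576 to 20310 in the other 11 libraries, and with 29.5% of its reads in its 20 most abundant genes against 17.4% to 21.7%. The main counts that involve it are therefore given with and without it. Values of single genes are over all 12 libraries unless the fit without it is named. Tert had 1.62, 1.23 and 1.11 FPKM (mapped fragments scaled to transcript length and library size) in Tert-/- ENU livers and 0.443, 0.304 and 0.734 FPKM in Tert-/- saline livers, against 6.22, 5.69 and 4.71 FPKM in wild-type ENU livers and 3.18, 3.22 and 1.61 FPKM in wild-type saline livers. The clock genes also differed. The log2 ratio of Dbp to Arntl, a pair of clock transcripts with opposite daily phases, was 4.69, 3.43 and 6.29 in Tert-/- ENU livers, 6.46, 8.29 and 7.09 in Tert-/- saline livers, -0.58, 4.51 and 4.70 in wild-type ENU livers, and -2.73, 0.15 and -2.26 in wild-type saline livers. The genotypes did not overlap in this ratio under saline, and in Tert-/- liver the ENU and saline groups did not overlap either. Clock phase therefore cannot be told apart from genotype under saline, or from ENU in Tert-/- liver.

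Hepatocyte markers were abundant in every library. The summed level of the 7 hepatocyte markers measured was 35412 to 52708 FPKM in Tert-/- ENU livers, 52610 to 92595 FPKM in Tert-/- saline livers, 36922 to 55102 FPKM in wild-type ENU livers and 50063 to 69125 FPKM in wild-type saline livers. The 12 Kupffer cell and macrophage markers were all detected, and their sum was 185 to 230 FPKM in Tert-/- ENU livers, 209 to 513 FPKM in Tert-/- saline livers, 214 to 576 FPKM in wild-type ENU livers and 415 to 735 FPKM in wild-type saline livers. Of the 9 adipocyte markers, 3 passed the filter on low values, and the sum of all 9 was 454 to 1703 FPKM in Tert-/- ENU livers, 1336 to 1616 FPKM in Tert-/- saline livers, 1113 to 1698 FPKM in wild-type ENU livers and 1353 to 2303 FPKM in wild-type saline livers. Most of that sum was Car3, while Lep was at 0 in all 12 libraries and Adipoq at 0 in all Tert-/- saline and wild-type ENU libraries. Adrb3, on the same list, had 26.3, 21.3 and 20.6 FPKM in Tert-/- ENU livers, 8.61, 9.37 and 7.87 FPKM in Tert-/- saline livers, 37.0, 31.4 and 30.1 FPKM in wild-type ENU livers and 10.6, 11.6 and 9.35 FPKM in wild-type saline livers. The sum of 10 sinusoidal endothelial markers was 95.6 to 108 FPKM in Tert-/- ENU livers, 105 to 130 FPKM in Tert-/- saline livers, 103 to 156 FPKM in wild-type ENU livers and 164 to 204 FPKM in wild-type saline livers. In wild-type livers the sums of cholangiocyte markers did not overlap either (47.2 to 54.4 FPKM after ENU, 57.4 to 74.6 FPKM after saline). Nor did those of lymphocyte markers (1.53 to 1.84 FPKM after ENU, 4.28 to 6.59 FPKM after saline), of which 1 of 10 passed the filter. In Tert-/- livers both sums overlapped, with lymphocyte markers at 0.448 to 1.20 FPKM after ENU and 1.03 to 4.72 FPKM after saline. The stellate cell and fibroblast sums overlapped in wild-type livers, at 73.1 to 109 FPKM after ENU and 98.8 to 129 FPKM after saline. The part of these marker sums in the results below was not tested, and in whole liver fewer cells of a type and less RNA per cell cannot be told apart.

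Most of the 42 genes were abundant. The order of levels, compared per length over the mean of 12 libraries, began with Fabp1, the main fatty acid carrier of the hepatocyte cytosol, at 2151 FPKM. The thiolases Acaa2 and Acaa1b followed at 585 and 574 FPKM, then the transporter and synthetase Slc27a2 at 493 FPKM. Acaa2 ranged from 448 to 743 FPKM over libraries and Acaa1b from 360 to 830 FPKM, so these neighbours did not differ beyond their spread. Ppara itself had 83.5 FPKM, above 90.5% of the genes tested. Sitting near the middle of all genes tested were Cd36 at 10.7 FPKM and the thioesterases Acot4 and Acot1 at 9.19 and 7.59 FPKM. At the low end were the coactivator Ppargc1a at 2.14 FPKM, Acot2 at 0.928 FPKM, Acot3 at 0.910 FPKM and the hormone Fgf21 at 0.350 FPKM. The 42 genes took 1.16%, 1.18% and 1.07% of the reads in Tert-/- ENU livers, 0.920%, 0.932% and 0.887% in Tert-/- saline livers, 0.789%, 1.02% and 0.917% in wild-type ENU livers, and 0.789%, 0.679% and 0.850% in wild-type saline livers. The 3 Tert-/- ENU libraries were the 3 highest in this share.

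**Figure D1:**
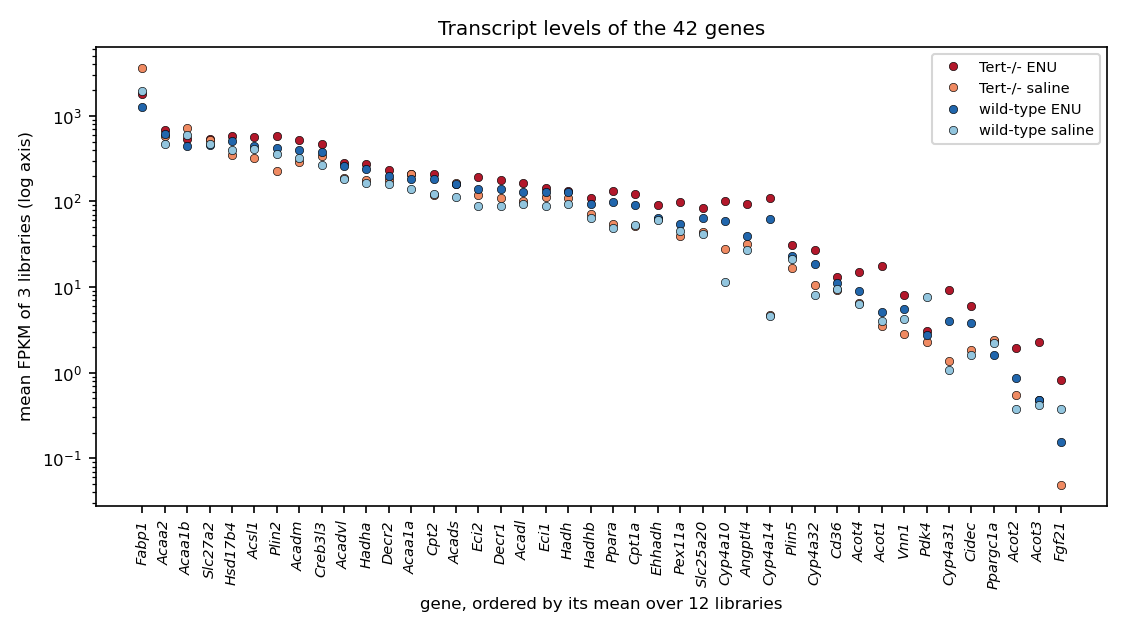
Mean FPKM of 3 libraries (vertical log axis) for each of the 42 genes in Tert-/- ENU, Tert-/- saline, wild-type ENU and wild-type saline livers, with genes ordered by their mean over 12 libraries. Levels run from 2151 FPKM for Fabp1 to 0.350 FPKM for Fgf21, and the groups lie far apart for Cyp4a14.

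The promoters of 5 members are shown, namely Fabp1, which came closest to the PPARalpha element, Plin2, Slc25a20 and Acot4, which hold a match and rose after ENU in Tert-/- liver, and Acot1, which rose and holds none. The motif searched was the direct repeat AGGTCANAGGTCA on both strands, with up to 2 of the 12 fixed letters different, over the 250 bases before and the 50 bases after each annotated start. Of the 34 members with a promoter in the RefSeq table (GRCm38.p6), 6 held such a match (17.6%), against 4.40% of all 27025 genes in that table. The 6 were Fabp1, Plin2, Slc25a20, Acot4, Cd36 and, in 1 of its windows, Creb3l3. Cd36 and Creb3l3, with as many letters different as Plin2, are not printed. No member held the exact repeat, which occurred in 0.0481% of genes, and Fabp1 came closest with 1 letter different, where 0.644% of genes had at most 1 different. The windows below are printed 5′ to 3′ on the gene's strand with the match in capitals. They are chr6:71199629-71199928 on the plus strand for Fabp1, chr4:86670010-86670309 on the minus strand for Plin2, chr9:108661886-108662185 on the plus strand for Slc25a20, chr12:84038129-84038428 on the plus strand for Acot4 and chr12:84009252-84009551 on the plus strand for Acot1.
Fabp1: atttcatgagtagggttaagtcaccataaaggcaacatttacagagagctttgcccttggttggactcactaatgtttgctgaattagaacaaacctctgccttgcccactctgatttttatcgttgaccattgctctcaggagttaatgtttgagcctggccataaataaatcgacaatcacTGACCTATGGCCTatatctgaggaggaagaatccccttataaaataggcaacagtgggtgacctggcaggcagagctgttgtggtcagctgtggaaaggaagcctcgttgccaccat
Plin2: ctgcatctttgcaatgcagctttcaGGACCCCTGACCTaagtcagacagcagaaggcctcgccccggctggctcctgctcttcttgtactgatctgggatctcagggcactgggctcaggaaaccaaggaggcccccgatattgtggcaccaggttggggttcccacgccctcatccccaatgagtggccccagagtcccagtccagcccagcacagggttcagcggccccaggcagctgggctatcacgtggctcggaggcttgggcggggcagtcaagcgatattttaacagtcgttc
Slc25a20: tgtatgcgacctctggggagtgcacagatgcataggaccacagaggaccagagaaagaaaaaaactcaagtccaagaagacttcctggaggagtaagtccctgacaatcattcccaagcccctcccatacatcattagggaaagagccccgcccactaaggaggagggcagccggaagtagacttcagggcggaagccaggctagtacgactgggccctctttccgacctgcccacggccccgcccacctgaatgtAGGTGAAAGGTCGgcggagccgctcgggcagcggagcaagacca
Acot4: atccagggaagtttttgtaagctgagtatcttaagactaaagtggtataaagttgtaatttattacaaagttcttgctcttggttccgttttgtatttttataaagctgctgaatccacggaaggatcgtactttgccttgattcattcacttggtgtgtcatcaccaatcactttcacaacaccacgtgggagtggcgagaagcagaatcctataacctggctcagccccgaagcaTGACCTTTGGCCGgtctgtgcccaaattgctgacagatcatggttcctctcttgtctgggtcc
Acot1: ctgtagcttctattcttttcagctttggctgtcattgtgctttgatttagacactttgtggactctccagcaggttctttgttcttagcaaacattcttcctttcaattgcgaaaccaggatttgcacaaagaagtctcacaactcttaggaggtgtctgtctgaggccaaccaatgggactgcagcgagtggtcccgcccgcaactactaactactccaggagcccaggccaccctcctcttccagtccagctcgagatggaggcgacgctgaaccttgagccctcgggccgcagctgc
The Fabp1, Plin2 and Acot4 matches lie on the opposite strand, and the Slc25a20 match lies just after the annotated start. In Acot1 the closest stretch had 4 letters different, so none of it is in capitals. A match is a description of letters and not a measured binding site.

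ENU in Tert-/- liver was followed by higher levels of fatty acid oxidation genes from the droplet surface to the peroxisome. Of the 41 members that passed the filter (at least 1 FPKM in at least 3 of 12 libraries), 19 rose and 0 fell at an adjusted p under 0.05 in limma, a linear model whose error borrows from all genes, on log2(FPKM + 1) over 12434 genes. Among all genes tested, 9.58% passed in either direction and 8.13% rose. The members' median log2 fold change was 0.78, against 0.24 for all genes. Rescaling by median ratios took away this shift of the whole table, to 0.005, and left the members' median at 0.49. After that rescaling 7 members rose, against 4.22% of all genes: Acot1, Plin2, Pex11a, Cpt1a, Cidec, Acot4 and Cyp4a14. Without Tert-/- saline replicate 2, 24 members rose and 0 fell, against 12.9% of all genes that rose. The median log2 fold change was then 0.71 for members and 0.07 for all genes. Without that library and with median-ratio rescaling 18 members rose, against 8.94% of all genes. Acot2 and Acot3 passed the filter only through the Tert-/- ENU libraries where they were high. Without these 2 genes 17 of 39 rose over all 12 libraries. The count rested on all 3 ENU livers: it was 5 without replicate 1, 5 without replicate 2 and 7 without replicate 3, where 1.8%, 3.03% and 2.69% of all genes rose. With the Dbp to Arntl ratio as a covariate it was 5, against 1.42% of all genes, and 21, against 10.3%, when Tert-/- saline replicate 2 was also left out. With the Tert-/- groups fitted alone 1 member rose, Acot1, against 0.378% of all genes.

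**Figure D2:**
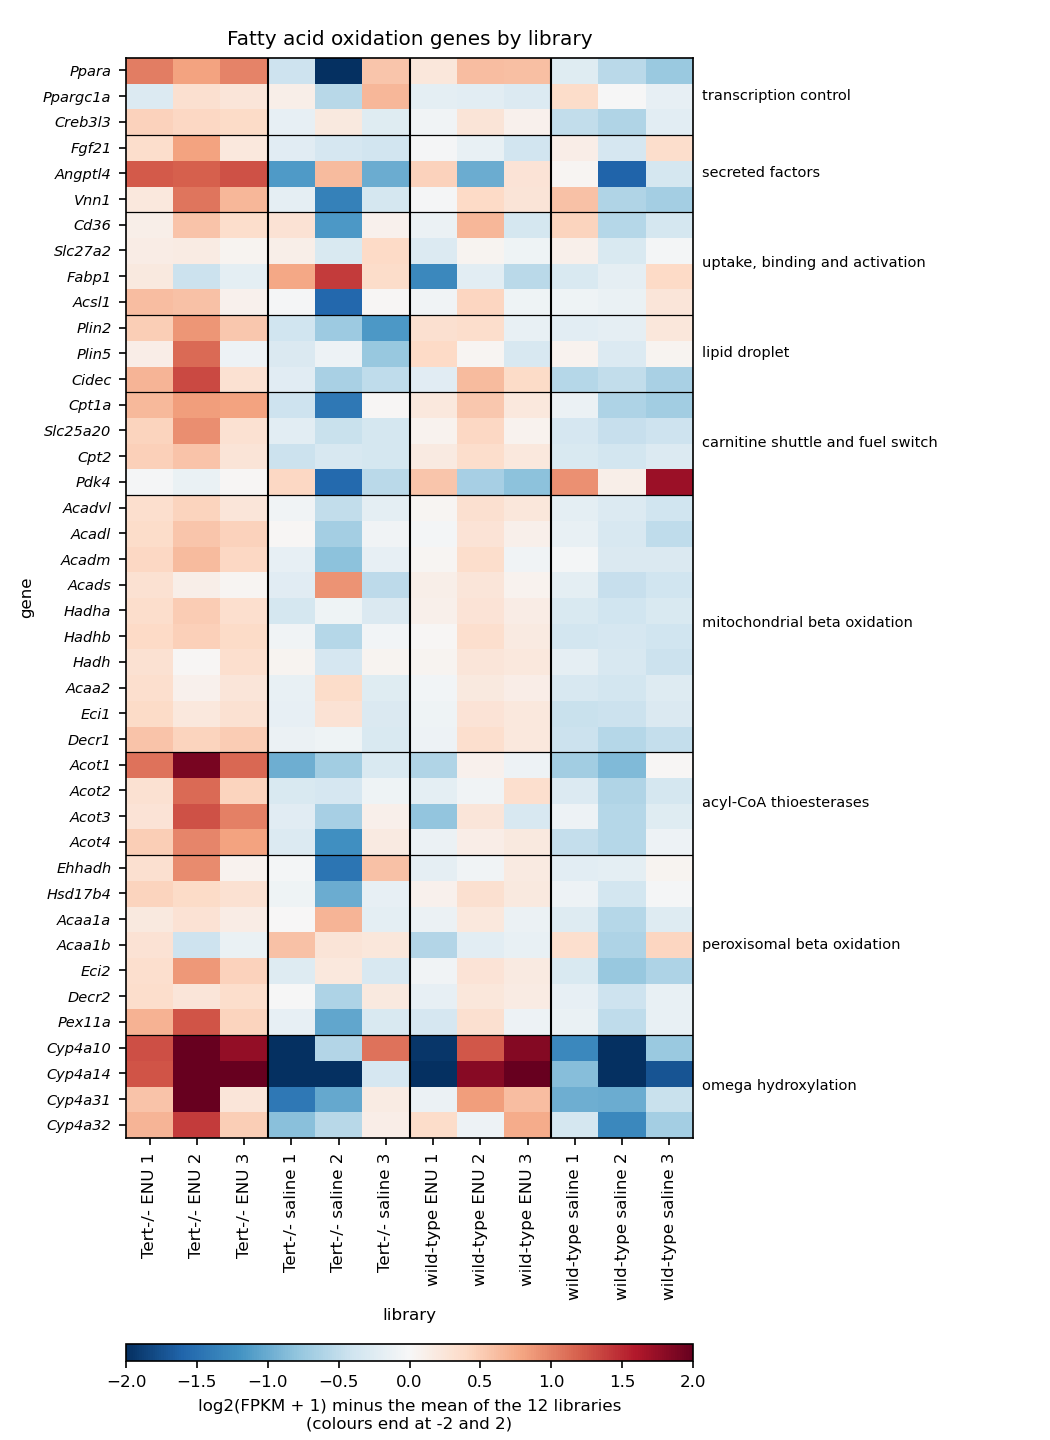
Each cell is the log2(FPKM + 1) of 1 gene (rows, grouped by role) in 1 of the 12 libraries (columns) minus that gene's mean over the 12, with red above and blue below it. The 3 Tert-/- ENU columns on the left are mostly red, Tert-/- saline replicate 2 departs from its group in both directions, and rows such as Cyp4a14, Ppara and Pdk4 vary widely.

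In the direction of the raw levels, 28 of the 41 members were higher in every Tert-/- ENU library than in every Tert-/- saline library, against 24.5% of all genes. Leaving out Tert-/- saline replicate 2 made this 33 members, against 29.6% of all genes. Both counts include Acot2 and Acot3, which passed the filter only through the Tert-/- ENU libraries where they were high. The only member that was lower in every ENU library was Fabp1, against 6.35% of all genes.

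Among the transcriptional controllers, Ppara had 141, 121 and 139 FPKM in Tert-/- ENU livers, against 51.5, 8.46 and 102 FPKM in Tert-/- saline livers. Every ENU library was above every saline library, and the low value of 8.46 FPKM belonged to the library that stood apart. In wild-type livers Ppara had 80.9, 107 and 105 FPKM after ENU, against 58.0, 47.3 and 41.1 FPKM after saline, again without overlap. Neither change passed over all 12 libraries, with log2 fold changes of 1.86 (SE 0.62, limma adjusted p = 0.078) in Tert-/- and 0.99 (SE 0.62, limma adjusted p = 0.57) in wild-type liver. Both passed without Tert-/- saline replicate 2, at 0.87 (SE 0.25, limma adjusted p = 0.037) in Tert-/- and 0.99 (SE 0.22, limma adjusted p = 0.023) in wild-type liver. Creb3l3, which encodes a liver transcription factor that works with PPARalpha, had 487, 473 and 461 FPKM in Tert-/- ENU livers, against 316, 406 and 301 FPKM in Tert-/- saline livers. It had 338, 424 and 376 FPKM in wild-type ENU livers, against 253, 232 and 305 FPKM in wild-type saline livers. It too passed in both genotypes only without that library, with a log2 fold change of 0.62 (SE 0.13, limma adjusted p = 0.012) in Tert-/- and 0.53 (SE 0.12, limma adjusted p = 0.023) in wild-type liver. Ppargc1a, the coactivator, stayed between 1.08 and 3.83 FPKM in all 12 libraries and passed in no comparison.

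Of the factors released by the liver, Angptl4, an inhibitor of lipoprotein lipase, had 91.3, 89.8 and 95.1 FPKM in Tert-/- ENU livers, against 17, 60.1 and 18.9 FPKM in Tert-/- saline livers. The ENU values lay close together and above all others measured. In wild-type livers it had 53.8, 18.8 and 46.7 FPKM after ENU, against 39.8, 12 and 29.9 FPKM after saline, and these groups overlapped. The change in Tert-/- liver missed the threshold over all libraries, at 1.73 (SE 0.53, limma adjusted p = 0.059), and passed without Tert-/- saline replicate 2, at 2.30 (SE 0.47, limma adjusted p = 0.0097). Fgf21, the fasting hormone, was too low for the test, with 0 to 49 reads per library. Its levels were 0.670, 1.28 and 0.509 FPKM in Tert-/- ENU livers, 0.114, 0.0331 and 0 FPKM in Tert-/- saline livers, 0.280, 0.180 and 0 FPKM in wild-type ENU livers, and 0.425, 0.0308 and 0.674 FPKM in wild-type saline livers. Vnn1, a pantetheinase held at the cell surface, had 5.46, 10.7 and 7.83 FPKM in Tert-/- ENU livers, against 3.96, 1.20 and 3.39 FPKM in Tert-/- saline livers, with no pass (limma adjusted p = 0.057).

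The genes for uptake, binding and activation of fatty acids gave 0 calls among 4, and 1 of the 4 estimates was below 0. Fabp1 had 2210, 1435 and 1689 FPKM in Tert-/- ENU livers, against 3281, 5114 and 2477 FPKM in Tert-/- saline livers. It ran against most members, with every ENU library below every saline library, and its log2 fold change of -0.98 (SE 0.33) had a limma adjusted p of 0.078. In wild-type livers Fabp1 had 788, 1658 and 1330 FPKM after ENU, against 1566, 1710 and 2555 FPKM after saline, and the groups overlapped. Slc27a2, a very long chain fatty acid synthetase and transporter, spanned 394 to 642 FPKM over the 12 libraries, with log2 fold changes of 0.05 (SE 0.19) in Tert-/- and -0.02 (SE 0.19) in wild-type liver. Acsl1, which attaches coenzyme A to long chain fatty acids, had 625, 615 and 433 FPKM in Tert-/- ENU livers, against 403, 137 and 417 FPKM in Tert-/- saline livers. The fatty acid translocase Cd36 spanned 4.0 to 16.6 FPKM, and its groups overlapped in every comparison.

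At the lipid droplet, Plin2, the coat protein that tracks stored fat in hepatocytes (Ensembl ENSMUSG00000028494, mm10 chr4:86648386-86670060), had 521, 687 and 538 FPKM in Tert-/- ENU livers, against 282, 223 and 166 FPKM in Tert-/- saline livers. All ENU libraries were far above all saline libraries, and the gene rose by a log2 fold change of 1.40 (SE 0.22, limma adjusted p = 0.0054). In wild-type livers it had 463, 474 and 335 FPKM after ENU, against 319, 326 and 435 FPKM after saline. There the groups overlapped, with a log2 fold change of 0.23 (SE 0.22, limma adjusted p = 0.76). Cidec, a protein of droplet growth, had 5.22, 8.75 and 3.82 FPKM in Tert-/- ENU livers, against 2.34, 1.49 and 1.75 FPKM in Tert-/- saline livers, and rose by 1.23 (SE 0.27, limma adjusted p = 0.021). Its wild-type values were 2.32, 5.02 and 4.06 FPKM after ENU, against 1.61, 1.76 and 1.48 FPKM after saline, also without overlap but with a limma adjusted p of 0.22. Plin5, which sits between droplets and mitochondria, had 24.1, 48.9 and 20.3 FPKM in Tert-/- ENU livers, against 17.6, 20.3 and 12.4 FPKM in Tert-/- saline livers, and did not pass.

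**Figure D3:**
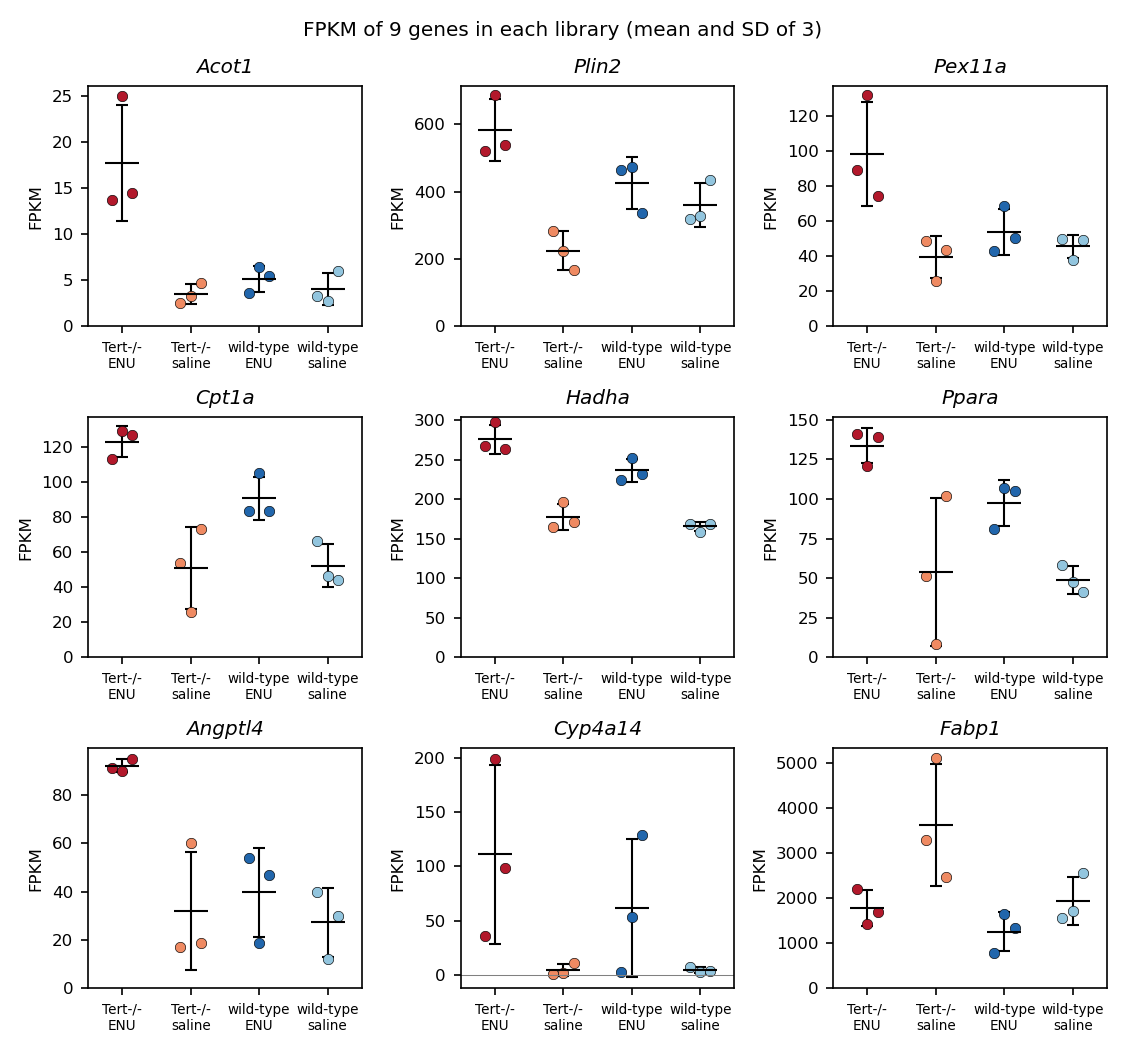
FPKM (vertical axes, from 0) of 9 genes in each library, in the order Tert-/- ENU, Tert-/- saline, wild-type ENU and wild-type saline, with the mean and SD of 3 libraries in black. Acot1, Plin2 and Angptl4 are highest in the 3 Tert-/- ENU livers, Cyp4a14 varies widely within both ENU groups, and Fabp1 is highest in Tert-/- saline livers.

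The carnitine shuttle, which carries long chain acyl groups into mitochondria, rose at each of its 3 steps in Tert-/- liver. After median-ratio rescaling over all 12 libraries only Cpt1a of the 3 passed. Cpt1a, the rate-controlling outer enzyme, had 113, 129 and 127 FPKM in Tert-/- ENU livers, against 53.9, 26.1 and 73.1 FPKM in Tert-/- saline livers. It rose by a log2 fold change of 1.37 (SE 0.30, limma adjusted p = 0.020), and by 0.96 (SE 0.19, limma adjusted p = 0.0082) without Tert-/- saline replicate 2. Slc25a20, the translocase of the inner membrane, had 75.9, 106 and 68.8 FPKM in Tert-/- ENU livers, against 47.9, 40.5 and 43.1 FPKM in Tert-/- saline livers, and rose by 0.89 (SE 0.17, limma adjusted p = 0.013). Its promoter is one of the 6 with a match. Cpt2, the inner enzyme (ENSMUSG00000028607, mm10 chr4:107903981-107923610), had 211, 227 and 182 FPKM in Tert-/- ENU livers, against 113, 122 and 118 FPKM in Tert-/- saline livers, and rose by 0.80 (SE 0.13, limma adjusted p = 0.0052). Its saline values were the tightest of all members in that group, with a coefficient of variation of 3.92%. In wild-type livers Cpt2 had 173, 194 and 175 FPKM after ENU, against 123, 118 and 125 FPKM after saline. Pdk4, a kinase that restrains glucose oxidation, moved apart from the shuttle, with 3.12, 2.81 and 3.26 FPKM in Tert-/- ENU livers, 4.60, 0.423 and 1.88 FPKM in Tert-/- saline livers, 5.18, 1.66 and 1.37 FPKM in wild-type ENU livers and 6.89, 3.56 and 12.8 FPKM in wild-type saline livers. Its groups overlapped in every comparison and it passed in none.

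Mitochondrial beta oxidation shortens the acyl chain in a cycle of 4 reactions. In Tert-/- liver 6 of its 10 genes here rose, with 0 that fell, against 8.13% of all genes that rose. After median-ratio rescaling over all 12 libraries none of the 6 passed. The first reaction is run by dehydrogenases of falling chain length. Acadvl had 280, 303 and 263 FPKM in Tert-/- ENU livers, against 210, 157 and 194 FPKM in Tert-/- saline livers, and rose by 0.60 (SE 0.15, limma adjusted p = 0.029). Acadl rose by 0.70 (SE 0.19, limma adjusted p = 0.039), with 152, 174 and 163 FPKM in Tert-/- ENU livers, against 119, 73.3 and 113 FPKM in Tert-/- saline livers. Acadm, the medium chain enzyme, had 496, 574 and 493 FPKM in Tert-/- ENU livers, against 331, 209 and 330 FPKM in Tert-/- saline livers, and rose by 0.87 (SE 0.19, limma adjusted p = 0.021). Acads, the short chain enzyme, had 177, 156 and 148 FPKM in Tert-/- ENU livers, against 123, 268 and 99.8 FPKM in Tert-/- saline livers. Its groups overlapped only through Tert-/- saline replicate 2, at 268 FPKM.

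Hadha and Hadhb encode the alpha and beta subunits of the trifunctional protein and lie head to head on chromosome 5, with 85 bases between them. Hadha had 268, 297 and 263 FPKM in Tert-/- ENU livers, against 164, 196 and 172 FPKM in Tert-/- saline livers, and rose by 0.64 (SE 0.13, limma adjusted p = 0.013). Hadhb had 109, 115 and 108 FPKM in Tert-/- ENU livers, against 78.2, 55.4 and 79.7 FPKM in Tert-/- saline livers, and rose by 0.65 (SE 0.16, limma adjusted p = 0.027). In neither gene did the groups overlap. Decr1, needed for unsaturated chains, had 184, 168 and 175 FPKM in Tert-/- ENU livers, against 114, 116 and 99.6 FPKM in Tert-/- saline livers, and rose by 0.68 (SE 0.14, limma adjusted p = 0.016). The short chain dehydrogenase Hadh, the thiolase Acaa2 and the isomerase Eci1 did not pass, with log2 fold changes of 0.29 (SE 0.15), 0.23 (SE 0.17) and 0.35 (SE 0.17). Without Tert-/- saline replicate 2, where Acaa2 had 743 FPKM and Eci1 had 142 FPKM, 9 of the 10 rose and Hadh did not pass.

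The acyl-CoA thioesterases release free fatty acids from coenzyme A, in cytosol (Acot1), mitochondria (Acot2) and peroxisomes (Acot3 and Acot4). These 4 genes lie in 71.7 kb at mm10 chr12:83987861-84059565 and are close in sequence, so reads may be shared between them and their separate values are uncertain. Acot1 (ENSMUSG00000072949, chr12:84009502-84017670) had 13.7, 24.9 and 14.5 FPKM in Tert-/- ENU livers, against 2.52, 3.28 and 4.64 FPKM in Tert-/- saline livers. The lowest ENU value was over the highest saline value by a wide margin, and Acot1 rose by a log2 fold change of 2.04 (SE 0.30, limma adjusted p = 0.0043), the smallest p among the members. It passed under all 24 alternative treatments of the data that were run, where its log2 fold change was 1.71 to 2.30. The other 18 members that rose passed under 5 to 23 of the 24. Plin2 passed under 23, Cyp4a14 under 12, Cyp4a32 under 8, Acot2 under 7, Acadl under 6, and Acot3 and Hsd17b4 under 5 each. In wild-type livers Acot1 had 3.59, 6.39 and 5.46 FPKM after ENU, against 3.29, 2.76 and 6.02 FPKM after saline, and the groups overlapped. Acot4 had 12.2, 17.5 and 15.4 FPKM in Tert-/- ENU livers, against 6.82, 3.03 and 9.72 FPKM in Tert-/- saline livers, and rose by 1.19 (SE 0.30, limma adjusted p = 0.032). Acot2 and Acot3 entered the test only through the Tert-/- ENU libraries, where they were high, so their values are a description. Acot2 had 1.26, 3.01 and 1.48 FPKM in Tert-/- ENU livers, against 0.482, 0.445 and 0.708 FPKM in Tert-/- saline livers, with a log2 fold change of 0.87 (SE 0.23, limma adjusted p = 0.034). Acot3 had 1.10, 3.20 and 2.49 FPKM in Tert-/- ENU livers, against 0.488, 0.0992 and 0.852 FPKM in Tert-/- saline livers. Its log2 fold change was 1.11 (SE 0.31, limma adjusted p = 0.046), and without Tert-/- saline replicate 2 it was 0.92 (SE 0.34, limma adjusted p = 0.090).

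**Figure D4:**
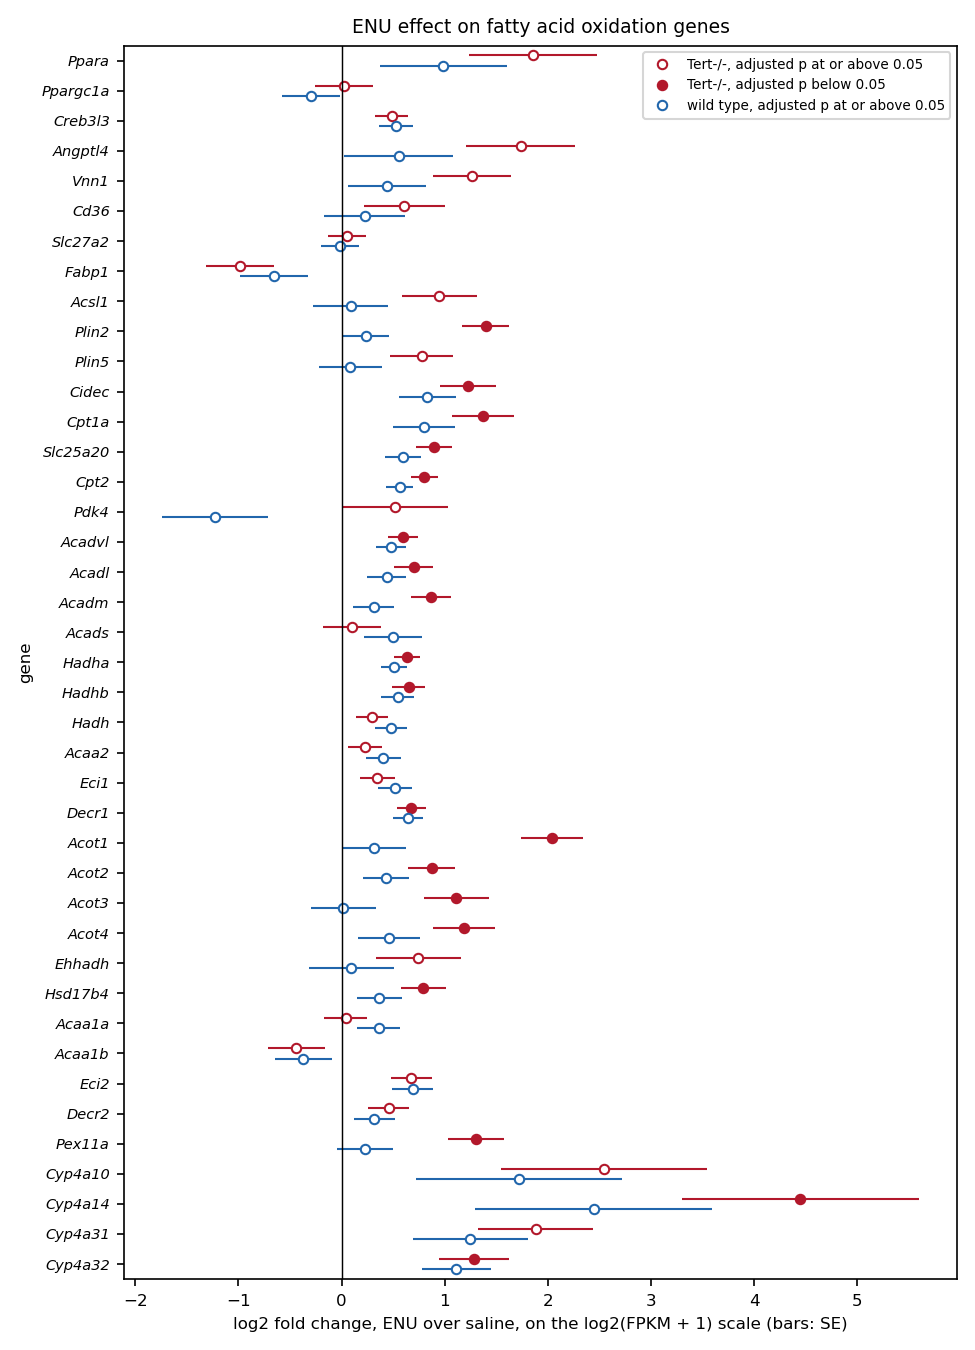
Log2 fold change of ENU over saline (horizontal axis, log2(FPKM + 1) scale, bars SE) for the 41 genes tested, with Tert-/- above wild type in each row and filled points for an adjusted p under 0.05. The 19 filled points all belong to Tert-/- liver and lie right of 0, and no wild-type point is filled.

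In peroxisomes, where very long chains are shortened, 2 of 7 genes rose in Tert-/- liver, against 8.13% of all genes. Pex11a, which drives peroxisome division, had 89.1, 132 and 74.5 FPKM in Tert-/- ENU livers, against 48.6, 26.1 and 43.7 FPKM in Tert-/- saline livers, and rose by 1.30 (SE 0.27, limma adjusted p = 0.016). In wild-type livers it had 43.0, 68.5 and 50.7 FPKM after ENU, against 49.7, 37.9 and 49.2 FPKM after saline, with overlap. Hsd17b4, a bifunctional enzyme of the middle reactions, had 601, 577 and 546 FPKM in Tert-/- ENU livers, against 418, 221 and 393 FPKM in Tert-/- saline livers, and rose by 0.79 (SE 0.22, limma adjusted p = 0.041). Ehhadh, the other bifunctional enzyme and a classical PPARalpha target, had 81.3, 126 and 67.9 FPKM in Tert-/- ENU livers, against 63.5, 22.9 and 98.6 FPKM in Tert-/- saline livers. Those groups overlapped through the saline value of 98.6 FPKM, and Ehhadh did not pass. Eci2 missed the threshold (limma adjusted p = 0.054) and passed without Tert-/- saline replicate 2, at 0.84 (SE 0.18, limma adjusted p = 0.011). The reductase Decr2 had 242, 223 and 242 FPKM in Tert-/- ENU livers, against 188, 124 and 216 FPKM in Tert-/- saline livers. The peroxisomal thiolases Acaa1a and Acaa1b, 182582 bases apart on chromosome 9, did not pass, with log2 fold changes of 0.04 (SE 0.21) and -0.44 (SE 0.28).

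The omega hydroxylases of the Cyp4a family, which oxidize the far end of the chain, varied widely between libraries. The 4 genes lie in 135.4 kb at mm10 chr4:115486200-115621602 and may share reads, so their separate values are uncertain. Cyp4a14 (ENSMUSG00000028715) had 35.8, 199 and 98.5 FPKM in Tert-/- ENU livers, against 0.939, 1.95 and 11.2 FPKM in Tert-/- saline livers. It rose by a log2 fold change of 4.45 (SE 1.15, limma adjusted p = 0.034), with no overlap, but missed the threshold without Tert-/- saline replicate 2, at 4.21 (SE 1.34, limma adjusted p = 0.055). In wild-type livers Cyp4a14 had 2.28, 53.4 and 129 FPKM after ENU, against 7.55, 2.65 and 3.63 FPKM after saline. Wild-type ENU replicate 1 lay below all its saline counterparts while replicates 2 and 3 lay far above them. It was also the ENU library with the lowest Dbp to Arntl ratio, at -0.58. Tert-/- ENU replicate 2, with the lowest ratio of its group at 3.43, had the highest Cyp4a14 level. With that ratio as a covariate the log2 fold change of Cyp4a14 was 5.63 (SE 1.18, limma adjusted p = 0.043) in Tert-/- liver. In wild-type liver it was 0.31 (SE 1.47, limma adjusted p = 0.99), against 2.44 (SE 1.15, limma adjusted p = 0.41) without the covariate. The part of the clock in these levels was not tested. Cyp4a10 also varied within groups, with 70.3, 137 and 97.7 FPKM in Tert-/- ENU livers, 3.01, 18.6 and 61.1 FPKM in Tert-/- saline livers, 6.62, 68.7 and 103 FPKM in wild-type ENU livers and 11.0, 6.39 and 16.5 FPKM in wild-type saline livers. It passed in no comparison. Cyp4a32 had 23.1, 38.8 and 20.2 FPKM in Tert-/- ENU livers, against 7.39, 9.26 and 15.4 FPKM in Tert-/- saline livers, and rose by 1.28 (SE 0.34, limma adjusted p = 0.036). Cyp4a31 had 4.30, 19.9 and 3.24 FPKM in Tert-/- ENU livers, against 0.334, 0.757 and 3.01 FPKM in Tert-/- saline livers, without overlap and without a pass (limma adjusted p = 0.054).

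In wild-type liver after ENU, 36 of the 41 member estimates were above 0, as were 65.2% of those of all genes, and whether members passed depended on a library of another group. Over all 12 libraries 0 of 41 members passed in limma, against 0.997% of all genes in either direction and 0.748% that rose, while 17 members had an unadjusted p under 0.05, against 12.7% of all genes. The members' median log2 fold change was 0.44, against 0.10 for all genes. The 4 smallest p-values belonged to Decr1 at 0.64 (SE 0.14, limma adjusted p = 0.061), Cpt2 at 0.56 (SE 0.13, limma adjusted p = 0.067), Hadha at 0.51 (SE 0.13, limma adjusted p = 0.099) and Eci2 at 0.69 (SE 0.20, limma adjusted p = 0.16). Decr1 had 115, 157 and 143 FPKM in wild-type ENU livers, against 91.2, 83.0 and 88.2 FPKM in wild-type saline livers. Hadha had 225, 253 and 233 FPKM in wild-type ENU livers, against 169, 159 and 169 FPKM in wild-type saline livers. Eci2, the peroxisomal isomerase, had 122, 155 and 146 FPKM in wild-type ENU livers, against 103, 75.7 and 82.9 FPKM in wild-type saline livers. None of these groups overlapped. In all, 21 members were higher in every wild-type ENU library, against 27% of all genes, and 1 member, Ppargc1a, was lower in every one, against 8.33%.

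When Tert-/- saline replicate 2, which enters the wild-type comparison only through the shared spread, was left out, 15 members rose in wild-type liver, against 8.55% of all genes. With the wild-type groups fitted alone 14 rose, against 7.2% of all genes. Without that library but with the Dbp to Arntl ratio as a covariate 0 rose, against 0.635% of all genes. There 15 members had an unadjusted p under 0.05 in limma, against 14.7% of all genes. The 15 that rose in the first of these fits included 9 of the 10 mitochondrial genes, the 3 steps of the carnitine shuttle, Ppara, Creb3l3 and Eci2, and none of the 4 thioesterases, the 4 Cyp4a genes or the 3 droplet genes. Of the members that rose in the same fit in Tert-/- liver, 14 also rose in wild-type liver, 10 rose in Tert-/- liver alone and 1, Hadh, in wild-type liver alone. The 10 were Angptl4, Plin2, Cidec, Acadm, Acot1, Acot2, Acot4, Hsd17b4, Pex11a and Cyp4a32. Of these, Acot2 was tested only because the Tert-/- ENU libraries carried it past the filter. Passing in 1 genotype does not show a difference between genotypes, which was tested on its own.

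The test of that difference, the ENU effect in Tert-/- liver minus the ENU effect in wild-type liver, gave 0 calls, among the members (0 of 41) and among all genes (0%), with or without Tert-/- saline replicate 2. The 4 smallest p-values were those of Acot1, with a difference of 1.72 on the log2 scale (SE 0.43, limma adjusted p = 0.67), Plin2, with 1.16 (SE 0.32, limma adjusted p = 0.67), Pex11a, with 1.08 (SE 0.39, limma adjusted p = 0.67), and Acot3, with 1.10 (SE 0.44, limma adjusted p = 0.71). Of these, Acot3 was tested only because the Tert-/- ENU libraries carried it past the filter. Without Tert-/- saline replicate 2 the difference was 1.70 (SE 0.45, limma adjusted p = 0.22) for Acot1 and 1.18 (SE 0.33, limma adjusted p = 0.22) for Plin2. In limma 5 members had an unadjusted p under 0.05, against 6.79% of all genes. The mitochondrial genes gave differences of -0.40 (SE 0.40) for Acads to 0.56 (SE 0.28) for Acadm, with 0.03 (SE 0.20) for Decr1 and 0.13 (SE 0.18) for Hadha. That of Acads was 0.03 (SE 0.17) without Tert-/- saline replicate 2.

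Tert-/- livers were compared with wild-type livers after ENU. In limma 0 of 41 members passed and 0% of all genes did, with or without Tert-/- saline replicate 2, while 7 members had an unadjusted p under 0.05, against 4.35% of all genes. All 41 estimates were above 0, where 42.7% of all genes had an estimate above 0, and the members' median was 0.35 against -0.03 for all genes. The count above 0 was 40 with quantile normalization, with the Dbp to Arntl ratio as a covariate and with library quality weights, and 39 to 41 with 1 library left out. Of the members, 16 were higher in every Tert-/- ENU library than in every wild-type ENU library, against 5.56% of all genes, and 0 were lower in every one, against 10.4%. These 16 were Ppara, Creb3l3, Angptl4, Plin2, Cpt1a, Acadl, Acadm, Hadha, Hadhb, Decr1, Acot1, Acot3, Acot4, Eci2, Decr2 and Pex11a. Acot1 had the smallest p, with 13.7, 24.9 and 14.5 FPKM in Tert-/- ENU livers, against 3.59, 6.39 and 5.46 FPKM in wild-type ENU livers, with no overlap and a log2 fold change of 1.58 (SE 0.30, limma adjusted p = 0.36). Acot3 followed at 1.14 (SE 0.31, limma adjusted p = 0.79), then Pex11a at 0.84 (SE 0.27, limma adjusted p = 0.90) and Acot2 at 0.61 (SE 0.23, limma adjusted p = 1.0), where Acot2 and Acot3 were tested only because the Tert-/- ENU libraries carried them past the filter. Plin2 had 521, 687 and 538 FPKM in Tert-/- ENU livers, against 463, 474 and 335 FPKM in wild-type ENU livers, also with no overlap.

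Tert-/- livers were also compared with wild-type livers under saline, where 25 of the member estimates were above 0 and 16 below. In limma 0 of 41 passed, against 5.01% of all genes, while 7 had an unadjusted p under 0.05, against 23.5% of all genes. In the fit without Tert-/- saline replicate 2 the count was also 0, against 12.9% of all genes. The members' median log2 fold change was 0.07, against -0.19 for all genes. The 4 smallest p-values were those of Plin2, at -0.70 (SE 0.22, limma adjusted p = 0.090), Pdk4, at -1.48 (SE 0.51, limma adjusted p = 0.11), Fabp1, at 0.87 (SE 0.33, limma adjusted p = 0.14), and Acaa1a, at 0.53 (SE 0.21, limma adjusted p = 0.15). Plin2 had 282, 223 and 166 FPKM in Tert-/- saline livers, against 319, 326 and 435 FPKM in wild-type saline livers. It was the only member lower in every Tert-/- saline library, against 19.5% of all genes. Acaa1a, Acaa2 and Decr1 were higher in every one, against 6.42%. Without Tert-/- saline replicate 2 the counts were 9 higher, against 22% of all genes, and 2 lower, Plin2 and Plin5, against 24.8%. With the Dbp to Arntl ratio as a covariate the estimates of Pdk4 and Fabp1 changed sign, to 1.02 and -0.34.

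**Figure D5:**
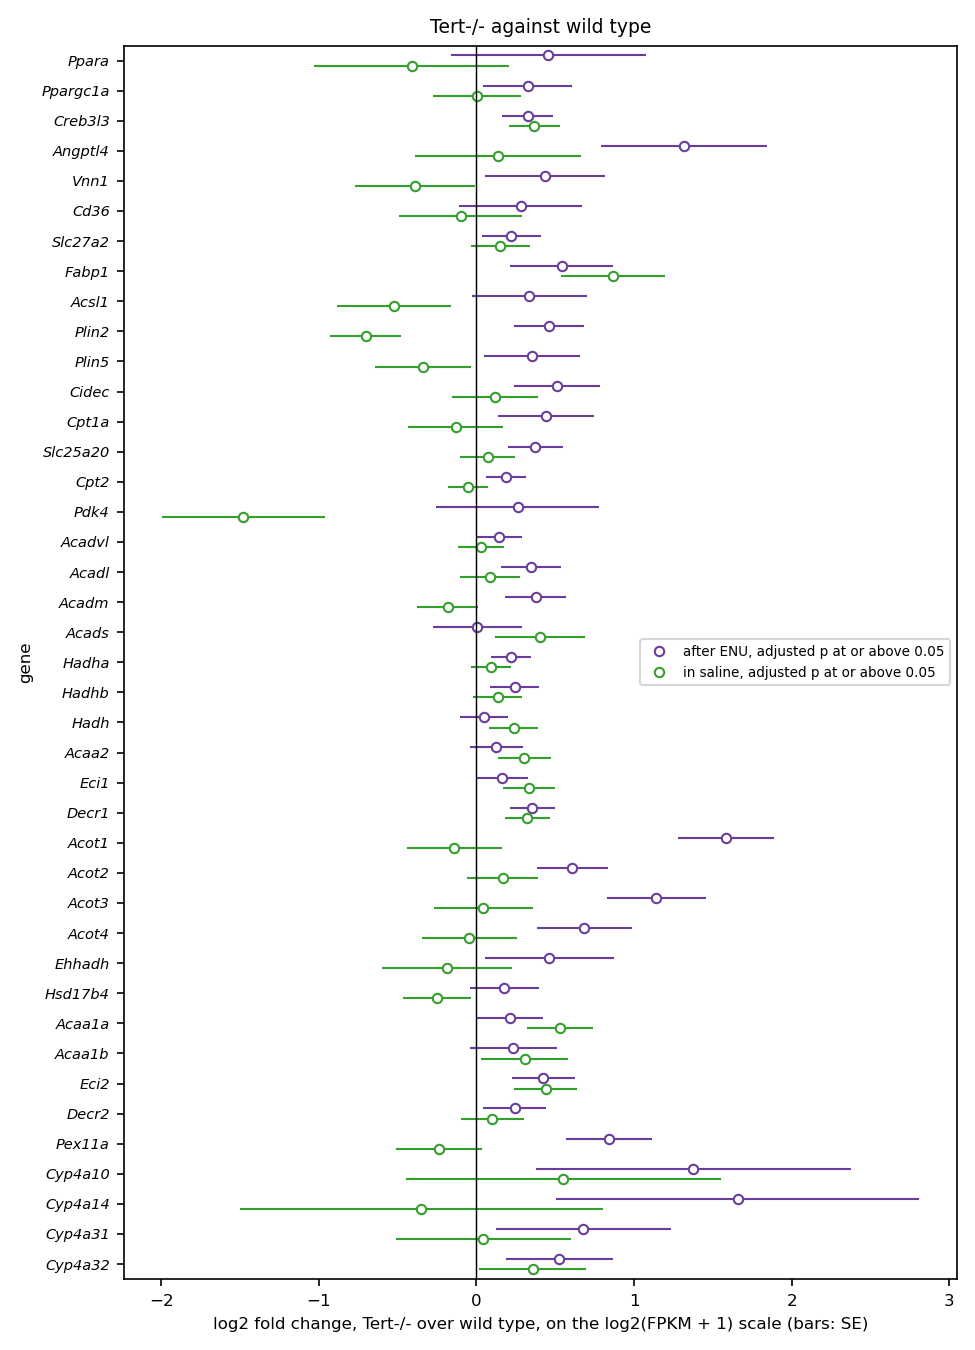
Log2 fold change of Tert-/- over wild type (horizontal axis, log2(FPKM + 1) scale, bars SE) for the 41 genes tested, with livers after ENU above livers in saline in each row. The points after ENU all lie right of 0, with Acot1 at 1.58, the saline points lie on both sides, and all points are open because no adjusted p was under 0.05.

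Libraries of a group differed in these genes as well. Tert-/- ENU replicate 2 had the highest level of 24 of the 42 genes (57.1%), although it was highest for 7.77% of all genes tested. These 24 included all 4 Acot genes, all 4 Cyp4a genes, all 3 droplet genes and the 3 steps of the carnitine shuttle. Wild-type saline replicate 2 had the lowest level of 11 members (26.2%, against 3.07% of all genes), Angptl4 and Hadha among them. Tert-/- saline replicate 2 was lowest for 17 members (40.5%, against 54.6% of all genes) and highest for 4, namely Fabp1, Acaa1a, Acaa2 and Acads. The median coefficient of variation of the members was 15.7% in Tert-/- ENU livers, 29.9% in Tert-/- saline livers, 14.9% in wild-type ENU livers and 14.7% in wild-type saline livers. For all genes tested it was 11.4%, 35.8%, 12.4% and 10.8% in the same order of groups.

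The surrounding pathway, 115 further genes of the same processes, was counted beside the members. Of the 106 tested, 15 rose and 4 fell after ENU in Tert-/- liver, ENU in wild-type liver gave 2 that rose and 1 that fell, and 1 was higher and 4 lower in Tert-/- than in wild-type liver under saline. Of all genes tested, 8.13% rose in the first comparison, 0.748% rose in the next and 5.01% passed in either direction in the last. Leaving out Tert-/- saline replicate 2 gave 25 up and 8 down in the first, 27 up and 3 down in the next, and 9 higher and 6 lower in the last, where 12.9% and 8.55% of all genes rose and 12.9% passed in either direction. After ENU 0 of the 106 passed between Tert-/- and wild-type liver, and 0 passed for the difference of the ENU effects, in limma.

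All 4 genes of ketone body synthesis were tested and 3 rose after ENU in Tert-/- liver, Bdh1 and Acat1 among them. Of all genes, 8.13% rose there. Bdh1, the last enzyme of the route, averaged 204 ± 30.8 FPKM in Tert-/- ENU livers and 110 ± 9.15 FPKM in Tert-/- saline livers (SD, n = 3 each), and rose by 0.88 (SE 0.17, limma adjusted p = 0.01). It also rose in wild-type liver, by 0.82 (SE 0.17, limma adjusted p = 0.042), with 206 ± 32.5 FPKM after ENU and 116 ± 10.4 FPKM after saline. Acat1, which makes acetoacetyl-CoA, rose by 0.64 (SE 0.18, limma adjusted p = 0.042).

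Of the 17 carnitine and mitochondrial genes tested, 3 rose and 1 fell in Tert-/- liver, where 8.13% of all genes rose. Slc22a5, the carnitine importer of the cell membrane, averaged 27.4 ± 4.61 FPKM in Tert-/- ENU livers and 11.1 ± 2.94 FPKM in Tert-/- saline livers, and rose by 1.26 (SE 0.20, limma adjusted p = 0.0051). Crat, carnitine acetyltransferase, averaged 48.8 ± 29.8 FPKM in Tert-/- ENU livers and 8.15 ± 1.29 FPKM in Tert-/- saline livers, and rose by 2.30 (SE 0.39, limma adjusted p = 0.0065). Crat was lower in Tert-/- than in wild-type liver under saline, by -1.51 on the log2 scale (SE 0.39, limma adjusted p = 0.048), with 25.1 ± 3.86 FPKM in wild-type saline livers, and passed there under 6 of the 24 alternatives. Acot13, a thioesterase outside the chromosome 12 cluster, averaged 37.3 ± 2.94 FPKM in Tert-/- ENU livers and 72.6 ± 21.6 FPKM in Tert-/- saline livers and fell by 0.91 on the log2 scale (SE 0.18, limma adjusted p = 0.013). In wild-type liver, where 0.997% of all genes passed in either direction, 1 gene of this list fell. It was Acacb, whose product makes the malonyl-CoA that inhibits Cpt1a, at 4.77 ± 0.551 FPKM after ENU and 25.3 ± 4.47 FPKM after saline, a log2 fold change of -2.18 (SE 0.34, limma adjusted p = 0.0085).

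Of the 30 peroxisomal genes tested, 4 rose and 1 fell in Tert-/- liver. Of all genes tested, 8.13% rose there, the share to set beside this and the next list counts. The thioesterase Acot8 rose by 0.77 (SE 0.15, limma adjusted p = 0.014), the import component Pex14 by 0.70 (SE 0.14, limma adjusted p = 0.015) and the branched chain oxidase Acox2 by 0.86 (SE 0.19, limma adjusted p = 0.019). Among 17 transcription genes 2 rose, among them Rxra, the partner of PPARalpha, by 0.56 (SE 0.14, limma adjusted p = 0.033). Rxra averaged 283 ± 2.21 FPKM in Tert-/- ENU livers and 193 ± 27.2 FPKM in Tert-/- saline livers. Among 22 genes of uptake and droplets, the fat storage protein Fitm2 rose by 0.89 (SE 0.20, limma adjusted p = 0.022). Lpl, the lipase of circulating lipoproteins, fell by 1.27 on the log2 scale (SE 0.31, limma adjusted p = 0.027), and Dbi, an acyl-CoA binding protein, fell by 0.70 (SE 0.19, limma adjusted p = 0.037). Lpl is made by macrophages as well, and the macrophage sum was 185 to 230 FPKM in Tert-/- ENU livers and 209 to 513 FPKM in Tert-/- saline livers. The part of macrophages in the Lpl value was not tested. Of the 16 other targets tested, the retinol saturase Retsat rose by 1.02 (SE 0.27, limma adjusted p = 0.035) and the fatty aldehyde dehydrogenase Aldh3a2 by 1.15 (SE 0.33, limma adjusted p = 0.047) in Tert-/- liver, and the aminotransferase Gpt rose by 0.88 (SE 0.16, limma adjusted p = 0.023) in wild-type liver.

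Under saline, Tert-/- liver had less Ppard, a related receptor, than wild-type liver, at 5.0 ± 1.65 FPKM in Tert-/- and 22.9 ± 10.1 FPKM in wild-type livers, a log2 fold change of -1.94 (SE 0.32, limma adjusted p = 0.016). Pex14 was lower as well, by -0.67 on the log2 scale (SE 0.14, limma adjusted p = 0.029). Acot13 was higher, by 0.82 (SE 0.18, limma adjusted p = 0.033). Of the 24 alternatives, Ppard passed under 19, Pex14 under 12 and Acot13 under 11. With the Dbp to Arntl ratio as a covariate 0 of the 12434 genes passed in this comparison in limma (315 had an unadjusted p under 0.05), 1 passed with the 2 saline groups alone and 4 without wild-type saline replicate 1.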

How the data were processed

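Liver RNA was sequenced in 12 libraries of 4 groups of 3, assigned from the sample labels. HISAT2, HTSeq and the build mm10 are named in the submitters' processing notes. No version, annotation release or strandedness was given in the sources used here, so reads of overlapping antisense genes cannot be told apart. The authors deposited 1 table of FPKM values per gene, scaled for gene length and library size. Dividing out rounded mean transcript lengths (GENCODE M21, or a searched length) recovered whole reads for 26523 of 26524 expressed genes, within 0.01 read in every library.

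The 12434 genes that reached 1 FPKM in 3 or more libraries were kept, and log2(FPKM + 1) was fitted with limma 3.58.1 (trend, group means over all 12 libraries, no covariate) in R 4.3.3, with Benjamini-Hochberg adjustment over all genes tested. Fold changes are on the log2(FPKM + 1) scale and understate the change of low genes. Fits were tested on simulated data. No 2 libraries of a group agreed within sampling noise. Statistics are given for members past an adjusted p of 0.05 in a contrast, or else for the 4 with the smallest p, and for up to 3 further genes per list and contrast; members discussed with values from the fit without Tert-/- saline replicate 2 were picked after their values were seen. Members, lists and alternatives were chosen with earlier results of these data known. Positions are those of the table. Promoters come from RefSeq (GRCm38.p6) and cover 34 members. Values of some further pathway genes are not reported here.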

Additional observations from a re-analysis of the deposited data

How the results depend on the processing

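The ENU effect in Tert-/- liver was called for 19 members, which all rose, against 8.13% of all genes that rose. The count was 10 with no filter on low values, against 2.36%. It was 7 with median-ratio rescaling, against 4.22%, and 6 with limma-voom on the recovered reads, against 3.85%. With the Dbp to Arntl ratio as a covariate it was 5, against 1.42%, and with the Tert-/- groups alone it was 1, against 0.378%. Library quality weights gave 28, against 18.9% of all genes that rose. Adding 0.1 in place of 1 FPKM gave 18, against 7.57%, and quantile normalization gave 15, against 5.13%. Without Tert-/- saline replicate 2, in fits chosen after seeing the data, 18 rose with median-ratio rescaling and 17 with voom, against 8.94% and 8.18%. The count ranged from 5 to 27 when each library was left out in turn. It was lowest without Tert-/- ENU replicate 1 or 2, where 1.8% and 3.03% of all genes rose. It was highest without Tert-/- saline replicate 3, where 26 rose and 1 fell, against 22.5% of all genes in either direction. The share of all called genes that rose was 84.9%, against 61.0% with median-ratio rescaling and 57.0% with quantile normalization.

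The ENU effect in wild-type liver was called for 0 members. The count was 1 with no filter on low values, 14 with the wild-type groups alone, 19 with library quality weights (computed gene by gene, since the default did not converge; Tert-/- saline replicate 2 had a weight of 0.045), and 0 to 15 when each library was left out. Chosen after seeing the data, and without Tert-/- saline replicate 2, it was 7 with voom, 8 with median-ratio rescaling and 0 with the clock covariate. Of all genes, 0.354% rose with no filter, 7.2% with the wild-type groups alone and 11.9% with quality weights. The count of 15 came without Tert-/- saline replicate 2, where 8.55% of all genes rose. In those later fits 3.48%, 3.41% and 0.635% of all genes rose, in the same order. Tert-/- against wild type in saline gave 0 members, 1 with quality weights, 0 to 1 leaving out a library, and 2, 2 and 0 with those later fits. With quality weights that was 2.44% of members, against 20.5% of all genes in either direction. In the later fits with voom and median-ratio rescaling it was 4.88% of members, against 13.2% and 14.5% of all genes. The share of members was thus below that of all genes in each of these fits. Tert-/- against wild type after ENU gave 0, and 1 with quality weights, where 0.539% of all genes passed in either direction. The difference of the ENU effects gave 0 members under every alternative run; it cannot be had from 2 groups alone.

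In saline the Pdk4 estimate of -1.48 became 1.02, and 1.04 without Tert-/- saline replicate 2, with the clock covariate, and that of Fabp1 became -0.34 and -0.36. The cause was not tested. No other member picked by the rule for named genes changed direction; the Acads difference, outside it, was -0.40, and 0.03 without Tert-/- saline replicate 2. With the replicate number as a block, 13 members rose after ENU in Tert-/- liver, against 6.4% of all genes, and 0 passed elsewhere. Same-numbered libraries deviated together (r over 0.1) in 7 of 18 pairs, with r from -0.16 to 0.21. Libraries with different numbers were not compared, so these values cannot decide whether the numbers pair the libraries. With 3 libraries a group, and Tert-/- saline replicate 2 apart, small differences in low genes were not detectable; Acot3 had 0 to 287 reads per library.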
